A study of Caenorhabditis elegans with 16 samples.

Results

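The genes described here are the heat shock protein (*hsp-*), J-domain (*dnj-*), CCT chaperonin (*cct-*) and prefoldin (*pfd-*) genes of *C. elegans*, together with *sti-1*. They were taken by name from the table of read counts, leaving out *hsp-3*, *hsp-4*, *hsp-6* and *hsp-60*. There were 62 such genes among 19122 in the table: 8 *hsp* genes, 29 *dnj* genes, 8 *cct* genes, 6 *pfd* genes, *sti-1*, 4 *hsp-12* genes and 6 *hsp-16* genes. The 10 small heat shock genes with *hsp-12* and *hsp-16* names are described apart from the other 52. All 62 were found in the gene annotation of the same genome build, WBcel235.

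Whole L4 larvae of 4 genotypes were compared, with 4 samples each. The wild type was N2, which carries no transgene. SKN-1t[NNNN] (strain GR3105, *mgTi21*), SKN-1t[NDNN] (NJL2492, *mgTi42*) and SKN-1t[DNDD] (NJL2494, *mgTi41*) are transgenic in the *unc-119(ed3)* III background, an allele that N2 lacks. Each expresses SKN-1 cut short at its N-terminus (SKN-1 is the Nrf transcription factor of the worm), without its anchor for the endoplasmic reticulum, tagged with HA and GFP and driven by the ubiquitous *rpl-28* promoter. The letters give the residue at 4 glycosylation motifs, where D in place of N mimics the product of sequence editing, and NDNN carries 1 such change and DNDD 3. Each strain is 1 transgene insertion, so a genotype cannot be told apart from its strain, and each sample pooled many synchronized animals. In whole animals, fewer cells of a type and less RNA per cell cannot be told apart.

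Chaperones hold client proteins in a foldable state and help them reach their native form. HSP70 binds short exposed stretches of a client, J-domain proteins bring it clients and start its ATP cycle, and nucleotide exchange factors such as HSP110 end that cycle. HSP90 acts later on partly folded clients, with STI-1 (HOP) linking it to HSP70, while prefoldin hands actin and tubulin to the ring-shaped chaperonin CCT. Small heat shock proteins bind unfolding proteins without ATP, and the *hsp-16* genes are the classical heat-inducible genes of the worm under the heat shock factor HSF-1.

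The name cytosolic does not hold for every gene of the set. HSP-75 is the mitochondrial HSP90 (TRAP1), DNJ-10, DNJ-15 and DNJ-21 are mitochondrial J proteins by homology, and DNJ-7, DNJ-20, DNJ-27 and DNJ-29 are relatives of the J proteins of the endoplasmic reticulum, the ER. Their values are given beside those of the other genes with this difference in view. The location of the other proteins was not checked, and some of them may also lie in organelles.

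Reads counted per sample ranged from 23806929 to 30457636, of which the 62 genes took 0.715% to 0.996%. Transcripts of *skn-1*, to which reads of the transgenes also add, were higher than in the wild type in all 3 strains, by 1.42 (NNNN), 1.3 (NDNN) and 0.97 (DNDD) on the log2 scale. Several marker lists also differed between the groups, and their part in the results below was not tested. All 7 intestine markers were lower in each strain at an adjusted p below 0.05, with a summed level of 14002 to 18515 CPM (read counts scaled for library size) in the wild type against 7848 to 10048 over the strains. The 8 molting markers summed to 791 to 2713 CPM in the wild type and 2312 to 6016 in the strains. The 13 oocyte and yolk markers summed to 3884 to 22122 CPM in the wild type and 100.01 to 4156 in the strains. This lower sum does not describe the whole list. In the NNNN, NDNN and DNDD strains 8, 4 and 10 of the 13 log2 differences were positive. Their medians were 0.42, -0.06 and 1.88, and the lowest values -10.98, -6.47 and -4.63. The 11 germline markers summed to 58.5 to 193 CPM in the wild type and 84.1 to 1054 in the strains, the 14 sperm markers to 39.2 to 124 and 30.5 to 383, and the 8 body wall muscle markers to 5084 to 5991 and 6334 to 8067. No marker of these lists was at 0 in all samples of a group.

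Differences between groups are log2 differences from a quasi-likelihood test of the counts (edgeR), with p-values adjusted over all genes tested. A gene was called at a difference beyond 1.5-fold with an adjusted p below 0.05, and a stricter cutoff required 2-fold and 0.01. Levels are in CPM, scaled over all 16 samples. The tests against the wild type were scaled within the 8 samples compared. A fit of all 16 samples moved these differences by a median over all genes of -0.116 (NNNN), -0.091 (NDNN) and -0.0085 (DNDD), so that the log2 differences quoted for the first 2 strains are somewhat higher than their CPM values give. Of the 62 genes, 58 had enough reads to be tested in every comparison, and the other 4 were *hsp-16* genes.

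Most chaperone genes changed by less than 1.5-fold. In SKN-1t[NNNN] animals 4 of 58 genes were called higher and 4 lower than in the wild type, where the shares of all 14192 genes tested were 14.3% and 12.3%. In SKN-1t[NDNN] animals 4 were higher and 1 lower, against 14.4% and 9.52% of all genes, and in SKN-1t[DNDD] animals 3 were higher and 2 lower, against 11.8% and 10.8%. Under upper-quartile scaling, which raised all differences for SKN-1t[DNDD] by 0.102 in the median, the split for that strain was 4 higher and 0 lower. The calls fell on 11 genes, 8 *dnj* and 3 *hsp-12* genes, which is 19% of the 58, where 38.2% of all 14045 genes tested in these 3 comparisons were called in at least 1 of them. At the 2-fold cutoff, *dnj-27* and *dnj-28* were higher in SKN-1t[NNNN] animals and *dnj-27* in SKN-1t[NDNN] animals, against 7.03% and 6.85% of all genes, and 0 genes were lower, against 6.12% and 3.34%. For SKN-1t[DNDD] 0 genes passed the 2-fold cutoff in edgeR in either direction, against 3.44% and 3.35%, while at an unadjusted p below 0.05 6 were higher and 7 lower, against 24.2% and 21.5%. DESeq2 called 2 genes higher and 0 lower in that comparison, and a fit with the replicate number as a block also called 2 higher. The 0 lower genes of SKN-1t[NNNN] animals and SKN-1t[NDNN] stood beside 7 and 5 at an unadjusted p below 0.05, against 20.4% and 19.2% of all genes, and beside 2 and 0 in DESeq2.

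**Figure D1:**
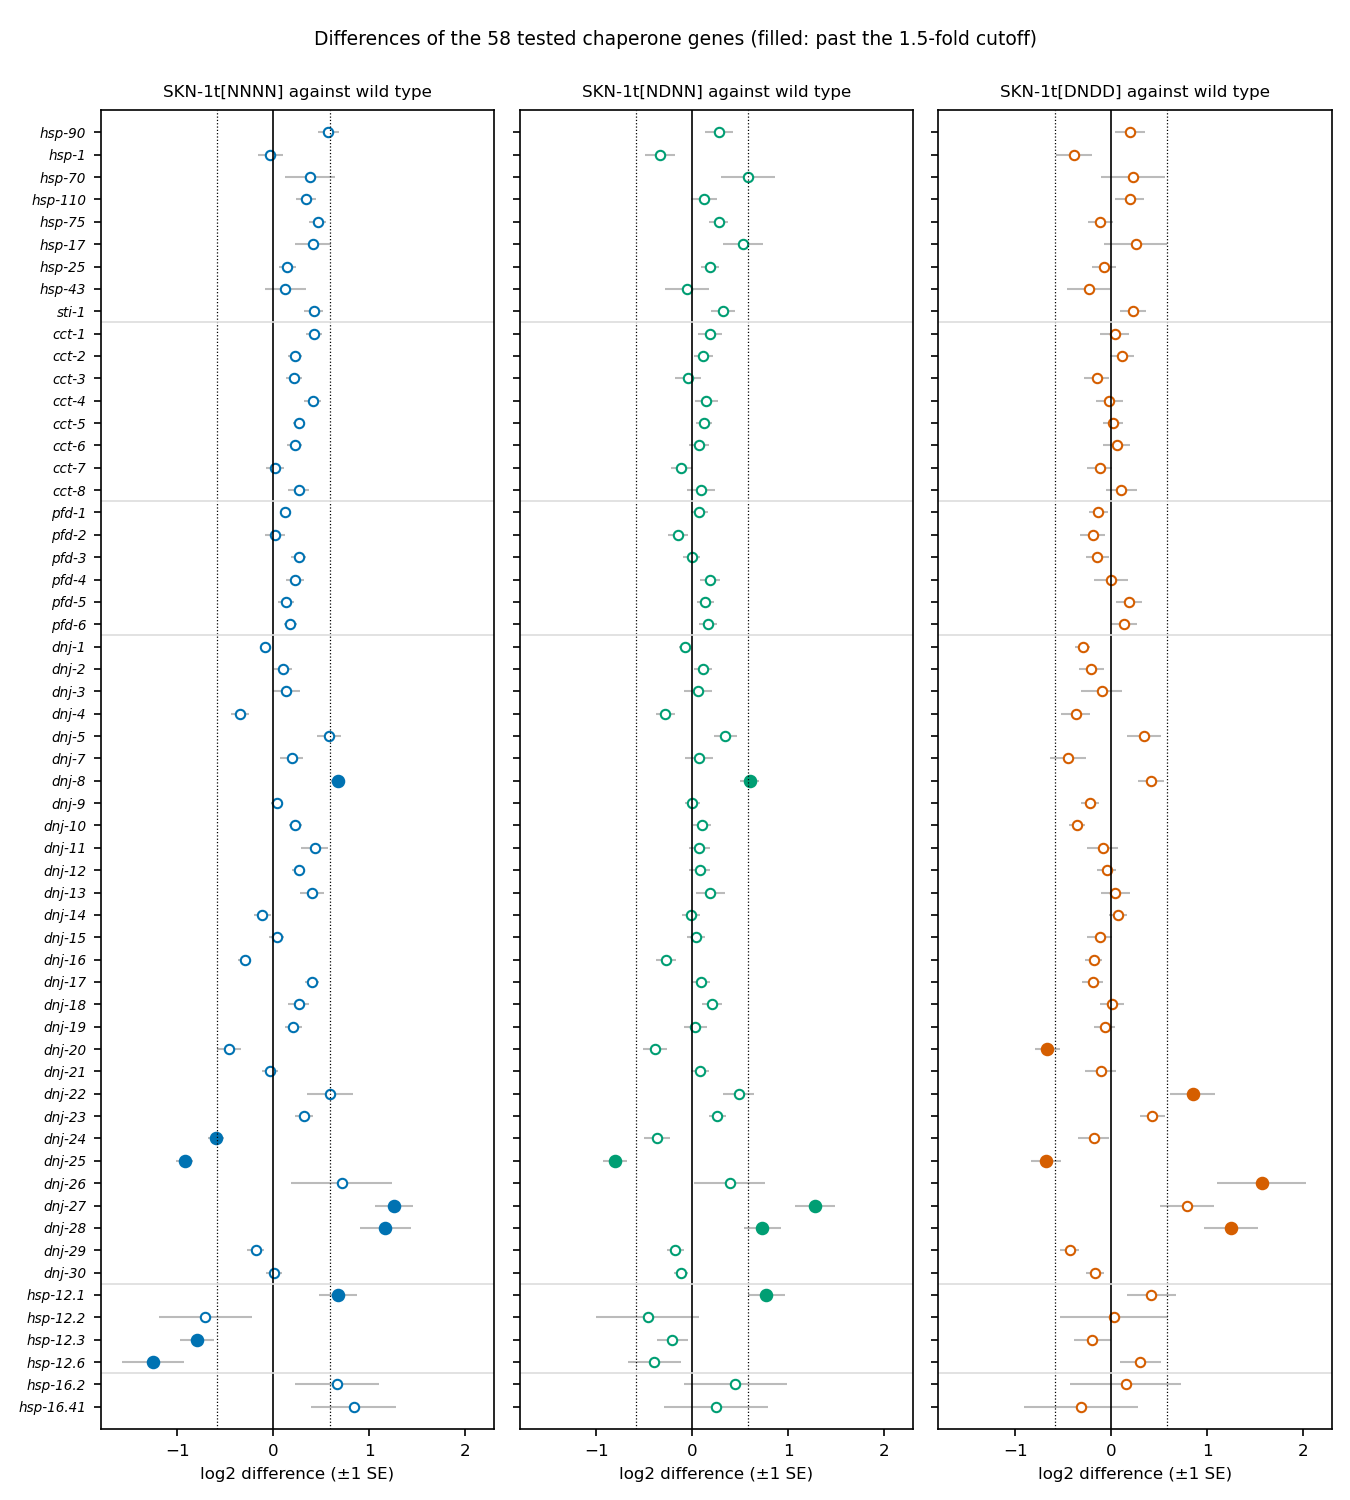
Log2 differences between each SKN-1t strain and the wild type (x axis, point and standard error) for the 58 chaperone genes tested, grouped by family from top to bottom. Filled points passed the 1.5-fold cutoff, marked by dotted lines, with an adjusted p below 0.05, and all of them are *dnj* or *hsp-12* genes.

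Without the fold limit, at an adjusted p below 0.05 alone, 20 of 58 chaperone genes had higher and 7 had lower levels in SKN-1t[NNNN] animals than in the wild type, against 20% and 17.1% of all genes. In SKN-1t[NDNN] animals 5 were higher and 2 lower, against 18.1% and 14.8%, and in SKN-1t[DNDD] animals 5 and 5, against 13.4% and 16.4%. The median difference of the 58 genes was 0.22 in SKN-1t[NNNN] animals, 0.09 in SKN-1t[NDNN] animals and -0.06 in SKN-1t[DNDD] animals, beside 0.14, 0.08 and 0.04 over all genes. The number higher in SKN-1t[NNNN] depended on the processing: it was 7, with 9 lower, in a fit of all 16 samples, 11 under RLE scaling, 10 without a filter, 13 in DESeq2, and 9 to 23 when 1 sample was left out. Leaving out wild type replicate 3 or 4 gave the 9, leaving out SKN-1t[NNNN] replicate 2 gave 10, wild type replicate 1 or 2 gave 12, SKN-1t[NNNN] replicate 1 gave 13 and SKN-1t[NNNN] replicate 4 gave the 23. For SKN-1t[NDNN] the fit of all 16 samples gave 3 higher and 8 lower, RLE scaling and no filter gave 4 higher each with 5 and 4 lower, DESeq2 gave 5 and 6, and upper-quartile scaling 6 and 1. Leaving out wild type replicate 1 or 4 gave 3 higher in that strain, and leaving out wild type replicate 2, 3 or 4 or SKN-1t[NDNN] replicate 2 or 4 gave 1 lower. The 5 higher in SKN-1t[DNDD] animals became 1 without wild type replicate 1 or 2, 2 without wild type replicate 3 or SKN-1t[DNDD] replicate 4 and 3 without wild type replicate 4 or SKN-1t[DNDD] replicate 1, and the 5 lower became 3 under upper-quartile scaling.

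None of the 23 *hsp*, *cct*, *pfd* and *sti-1* genes passed the 1.5-fold cutoff in any of the 6 comparisons, in edgeR or in DESeq2. Against the wild type, 14 of them were higher at an unadjusted p below 0.05 in SKN-1t[NNNN] animals, 3 in SKN-1t[NDNN] animals and 0 in SKN-1t[DNDD] animals, against 26.3%, 23.8% and 24.2% of all genes, and 0 were lower. These counts moved with the processing, to between 5 and 15, 0 and 7, and 0 and 4 over the 16 alternatives. The replicate block gave 5 higher and 1 lower in SKN-1t[NDNN] animals and 0 and 1 in SKN-1t[DNDD] animals. The fit of all 16 samples gave 5 higher in SKN-1t[NNNN] animals, whereas SKN-1t[NDNN] then had 0 higher and 2 lower. Leaving out wild type replicate 4 gave 6 in the former and 1 in the latter, wild type replicate 3 gave 7 and 0, and SKN-1t[NNNN] replicate 2 gave 7. Without SKN-1t[NDNN] replicate 1 or 2 the count for that strain was 0, without its replicate 3 it was 5 and without its replicate 4 it was 7, and for SKN-1t[DNDD] it was 4 without replicate 3 and 1 without replicate 4.

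At an adjusted p below 0.05 9 of the 23 were higher in SKN-1t[NNNN] animals and 0 in the other 2 strains. Of all genes tested, 20% (NNNN), 18.1% (NDNN) and 13.4% (DNDD) were higher at that cutoff. The 9 became 2 in the fit of all 16 samples, 5 under RLE scaling, without a filter and without wild type replicate 2, and 4 without SKN-1t[NNNN] replicate 2, wild type replicate 3 or wild type replicate 4. In SKN-1t[NDNN] animals the block gave 2 higher and 1 lower, upper-quartile scaling and leaving out SKN-1t[NDNN] replicate 3 gave 1 higher each and leaving out its replicate 4 gave 3, and in SKN-1t[DNDD] animals leaving out replicate 4 gave 1 higher. DESeq2 gave 6, 0 and 0. Leaving out SKN-1t[NNNN] replicate 1 or wild type replicate 2 brought 1 of the 23 past 1.5-fold in that strain, and leaving out SKN-1t[NDNN] replicate 4 brought 1 past it in SKN-1t[NDNN] animals.

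*hsp-90* (chromosome V, 14684918 to 14688545), the cytosolic HSP90, had the largest of the differences of these 23 genes that passed an adjusted p of 0.05. Its level in replicates 1 to 4 was 1060, 1352, 976 and 1182 CPM in the wild type, against 1501, 1550, 1547 and 1653 CPM in SKN-1t[NNNN] animals. The groups did not overlap, and the difference was 0.57 ± 0.11 (SE, n = 4 and 4, adjusted p = 0.0042). It kept an adjusted p below 0.05 in all 16 alternatives of the processing, with values of 0.45 to 0.60. SKN-1t[NDNN] animals had 1248, 1586, 1078 and 1292 CPM and SKN-1t[DNDD] animals 1431, 1306, 993 and 1478, both overlapping the wild type (0.28 ± 0.15, adjusted p = 0.18, and 0.20 ± 0.15, adjusted p = 0.34). All SKN-1t[DNDD] samples lay below all SKN-1t[NNNN] samples, but the difference of -0.26 ± 0.14 did not pass (adjusted p = 0.21).

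*sti-1* (chromosome V, 773518 to 774775), the HSP70 to HSP90 linker, was at 95.9, 105.2, 83.9 and 82.8 CPM in the wild type, against 106, 123, 119.8 and 105.4 CPM in SKN-1t[NNNN] animals, so that the groups came close without overlapping. The difference was 0.42 ± 0.10 (adjusted p = 0.010) and had an adjusted p below 0.05 in 12 of 16 alternatives. In the other strains *sti-1* differed by 0.32 ± 0.12 (NDNN, adjusted p = 0.082, and 0.036 with the replicate block) and 0.22 ± 0.14 (DNDD, adjusted p = 0.22).

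*hsp-1*, the constitutive cytosolic HSC70, had the highest level of all 62 genes when counted per gene length, at 1006 CPM per kb in the wild type, followed by *hsp-90* at 434 and *dnj-20* at 317. Wild-type samples had 1868, 2643, 1779 and 2049 CPM, SKN-1t[NNNN] 1869, 2004, 1680 and 1968, SKN-1t[NDNN] 1572, 1785, 1250 and 1580, and SKN-1t[DNDD] 1782, 1488, 1133 and 1922. The differences from the wild type were -0.03 ± 0.13 (adjusted p = 0.88), -0.34 ± 0.15 (adjusted p = 0.13, and 0.045 with the replicate block) and -0.39 ± 0.19 (adjusted p = 0.14). Wild type replicate 2 was the highest sample and SKN-1t[DNDD] replicate 3 the lowest.

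*hsp-110*, the nucleotide exchange factor of HSP70, was at 174 to 192 CPM in the wild type, against 189 to 244 in SKN-1t[NNNN] animals, with overlap (0.34 ± 0.10, adjusted p = 0.032, below 0.05 in 6 of 16 alternatives). It ranged from 145 to 226 CPM in SKN-1t[NDNN] animals and 148 to 249 in SKN-1t[DNDD] animals, with differences of 0.13 and 0.19 that did not pass. *hsp-70*, a heat-inducible HSP70, was low throughout, at 2.05 to 3.22 CPM in the wild type and 1.71 to 6.18 CPM over the strains. Its differences of 0.38, 0.58 and 0.23 had adjusted p of 0.28, 0.15 and 0.62.

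The mitochondrial HSP90, *hsp-75*, was higher in SKN-1t[NNNN] animals than in the wild type and than in SKN-1t[DNDD] animals. It was at 78.4, 70.2, 66.8 and 78.8 CPM in the wild type, with 102, 86.7, 87.4 and 96.6 in SKN-1t[NNNN] animals, 85.8, 92.4, 71.5 and 84.1 in SKN-1t[NDNN] animals and 78.5, 67.3, 53.9 and 71.1 in SKN-1t[DNDD] animals. All SKN-1t[NNNN] samples lay above all wild-type and all SKN-1t[DNDD] samples, while the SKN-1t[NDNN] samples overlapped the other 3 groups. The rise in SKN-1t[NNNN] was 0.46 ± 0.09 (adjusted p = 0.0043, below 0.05 in all 16 alternatives), and SKN-1t[DNDD] was lower than SKN-1t[NNNN] by a difference of -0.46 ± 0.11 (adjusted p = 0.016, below 0.05 in 14 of 16).

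*hsp-17*, *hsp-25* and *hsp-43* belong to the small heat shock family by sequence although their names keep them among the 8 *hsp* genes. *hsp-25* was the most abundant of them at 182 to 212 CPM in the wild type, and its differences of 0.14, 0.19 and -0.07 did not pass. *hsp-17* was at 48.2 to 75.7 CPM in the wild type, with 53.2 to 97.8 in SKN-1t[NNNN] animals, 63.0 to 111 in SKN-1t[NDNN] animals and 37.8 to 111 in SKN-1t[DNDD] animals (0.41, 0.53 and 0.25, adjusted p = 0.13, 0.079 and 0.57, with 0.019 for NDNN with the replicate block). *hsp-43*, at 12.1 to 26.4 CPM in all samples, differed by 0.12, -0.06 and -0.24 and did not pass.

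**Figure D2:**
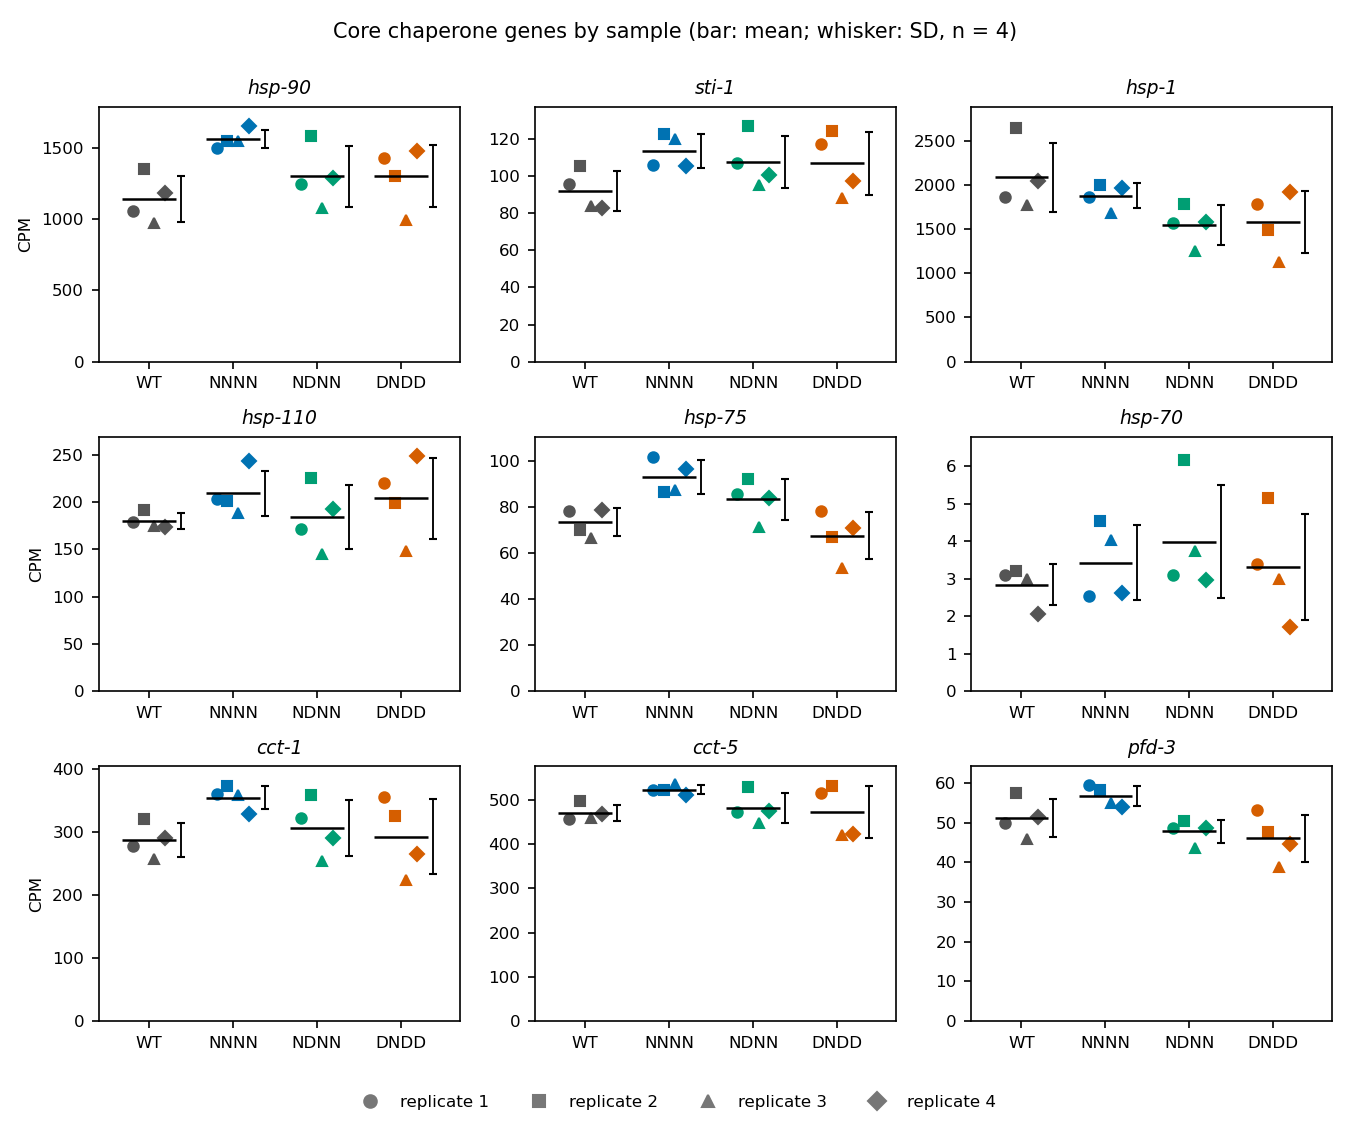
Level (CPM, axis from 0) of 9 chaperone genes in each of the 16 samples, with marker shapes for replicate numbers, bars at group means and whiskers of 1 SD (n = 4). For *hsp-90* the 4 SKN-1t[NNNN] samples sit at 1501 to 1653 CPM, above the 976 to 1352 of the wild type, and for 8 of the 9 genes, *hsp-70* excepted, replicate 3 is the lowest sample of the NDNN and of the DNDD strain.

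The 8 subunits of CCT differed from the wild type by less than 1.5-fold. In SKN-1t[NNNN] animals all 8 differences were positive, from 0.01 for *cct-7* to 0.42 for *cct-1*, with a median of 0.25. Of all genes tested there, 8619 of 14192 had a positive difference, and the median was 0.14. The genes *cct-1*, *cct-2*, *cct-4* and *cct-5* rose at an adjusted p below 0.05, against 20% of all genes. *cct-7* turned negative in some alternatives, to -0.10 at the lowest. *cct-1* was at 278, 322, 257 and 291 CPM in the wild type, against 360, 373, 359 and 329 CPM in SKN-1t[NNNN] animals, without overlap (0.42 ± 0.08, adjusted p = 0.0044). *cct-4* gave a similar value (0.41 ± 0.09, adjusted p = 0.0074), and both had an adjusted p below 0.05 in 15 of 16 alternatives, whereas *cct-5* (0.27) did in 9 and *cct-2* (0.23) in 3. In SKN-1t[NDNN] animals the range was -0.12 (*cct-7*) to 0.19 (*cct-1*), and in SKN-1t[DNDD] animals -0.15 (*cct-3*) to 0.12 (*cct-2*), none of them past the test.

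Sample by sample, the CCT genes varied together. After group means were removed, the 28 pairs of *cct* genes had a median Pearson r of 0.89 over the 16 samples, with a lowest value of 0.61. Of the other genes, *pfd-3* (0.92), *hsp-90* (0.88), *dnj-8* (0.86), *sti-1* (0.86), *dnj-19* (0.85), *dnj-13* (0.84) and *hsp-1* (0.83) followed the mean of the *cct* genes most closely, and *dnj-4* (-0.74) and *dnj-22* (-0.74) ran most against it. These values are descriptions over samples that share libraries and scaling. The mean log2 level of the 8 *cct* genes, set to 0 in the wild type, was lowest in replicate 3 of every genotype, at -0.12 for the wild type, 0.11 for SKN-1t[NNNN] animals, -0.24 for SKN-1t[NDNN] animals and -0.35 for SKN-1t[DNDD] animals. The 4 SKN-1t[NNNN] samples lay between 0.11 and 0.19, and the lowest and highest of the other 3 genotypes were -0.35 and 0.19.

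The 6 prefoldin subunits differed little from the wild type. Differences ran from 0.02 (*pfd-2*) to 0.26 (*pfd-3*) in SKN-1t[NNNN] animals, -0.15 (*pfd-2*) to 0.18 (*pfd-4*) in SKN-1t[NDNN] animals and -0.19 (*pfd-2*) to 0.19 (*pfd-5*) in SKN-1t[DNDD] animals. The single value past an adjusted p of 0.05 was *pfd-3* in SKN-1t[NNNN] animals (54.1 to 59.5 CPM against 45.9 to 57.5 in the wild type, adjusted p = 0.030, below 0.05 in 5 of 16 alternatives). Unlike the *cct* genes, the *pfd* genes did not share 1 pattern over the samples, with pairwise r from -0.29 to 0.97 and a median of 0.49.

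The J-domain genes held the largest changes among the 52 genes, in both directions. Of 29, 8 (27.6%) were called in at least 1 strain, against 38.2% of all genes, while the other 21 stayed between -0.45 and 0.58 against the wild type. *dnj-27* (chromosome I, 11877803 to 11887278) encodes a relative of the ER reductase ERdj5. It was at 34.5, 27.9, 17.2 and 22.7 CPM in the wild type, with 51.2, 62.6, 60.5 and 50.8 in SKN-1t[NNNN] animals, 62.1, 64.2, 47.1 and 60.3 in SKN-1t[NDNN] animals and 60.7, 52.6, 30.4 and 31.9 in SKN-1t[DNDD] animals. The first 2 strains lay wholly above the wild type, and replicates 3 and 4 of SKN-1t[DNDD] lay within its range. *dnj-27* rose by 1.25 ± 0.20 in SKN-1t[NNNN] animals (adjusted p = 0.0015) and 1.28 ± 0.21 in SKN-1t[NDNN] animals (adjusted p = 0.0020), both called in all 16 alternatives. In SKN-1t[DNDD] animals the difference of 0.79 ± 0.28 did not pass (adjusted p = 0.065), and with the replicate number as a block it did (0.77, adjusted p = 0.0027).

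*dnj-28* (chromosome I, 2996488 to 3001382) was called higher in all 3 strains, at a low level. The wild type had 3.95, 5.30, 4.55 and 4.64 CPM, SKN-1t[NNNN] 6.66, 9.12, 7.74 and 14.4, SKN-1t[NDNN] 5.30, 8.79, 6.51 and 8.05, and SKN-1t[DNDD] 8.74, 7.28, 10.02 and 17.6. Every SKN-1t[NNNN] and SKN-1t[DNDD] sample was above the wild type, with replicate 4 the highest in both, and replicate 1 of SKN-1t[NDNN] touched the wild-type range. The germline markers, summed, were also highest in replicate 4 of each strain, and their part was not tested. The differences were 1.17 ± 0.27 (adjusted p = 0.0090), 0.73 ± 0.19 (adjusted p = 0.019) and 1.25 ± 0.28 (adjusted p = 0.012). The call in SKN-1t[NDNN] was lost without wild type replicate 1 (0.66, adjusted p = 0.05002), wild type replicate 4 (0.72, adjusted p = 0.05019) or SKN-1t[NDNN] replicate 2 (0.61, adjusted p = 0.054), and in the fit of all 16 samples (0.64, adjusted p = 0.11).

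*dnj-8* (chromosome II, 6594382 to 6598080) was tightly spread in the wild type, at 31.1, 31.8, 31.6 and 33.2 CPM, and was at 46.6, 45.5, 45.9 and 48.8 CPM in SKN-1t[NNNN] animals and 45.4, 49.4, 37.7 and 49.1 CPM in SKN-1t[NDNN] animals. Neither strain overlapped the wild type, with differences of 0.67 ± 0.07 (adjusted p = 0.00015) and 0.60 ± 0.10 (adjusted p = 0.0020). Both lie close to the cutoff: the first fell below it in the fit of all 16 samples (0.55), and the second in 8 of 16 alternatives (0.51 to 0.56), among them leaving out wild type replicate 2 or SKN-1t[NDNN] replicate 1 (both 0.54), replicate 2 (0.55) or replicate 4 (0.56), in each of which the adjusted p stayed below 0.05. SKN-1t[DNDD] samples had 49.9, 44.2, 31.8 and 42.8 CPM, with replicate 3 inside the wild-type range (0.41 ± 0.14, adjusted p = 0.0499, and 0.0506 with the replicate block).

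*dnj-25* (chromosome V, 20729948 to 20744346), the worm auxilin, which brings HSC70 to clathrin coats, was the gene called lower in all 3 strains. It was at 102, 108, 89.96 and 87.1 CPM in the wild type, with 46.9, 45.8, 48.0 and 47.0 in SKN-1t[NNNN] animals, 44.0, 48.1, 63.3 and 52.6 in SKN-1t[NDNN] animals and 43.6, 57.7, 66.3 and 72.2 in SKN-1t[DNDD] animals. No sample of any strain reached the wild-type range. The differences were -0.93 ± 0.09 (adjusted p = 0.00011), -0.80 ± 0.13 (adjusted p = 0.0017) and -0.68 ± 0.16 (adjusted p = 0.014). The first 2 were called in all 16 alternatives, and the last fell short of 1.5-fold without SKN-1t[DNDD] replicate 1 (-0.52, adjusted p = 0.025) and under upper-quartile scaling (-0.58).

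*dnj-20* (chromosome II, 9617469 to 9624176), a relative of the abundant ER J protein ERdj3, was at 576, 730, 882 and 709 CPM in the wild type and lower in every transgenic sample, at 468 to 521 CPM in SKN-1t[NNNN] animals, 491 to 552 in SKN-1t[NDNN] animals and 439 to 469 in SKN-1t[DNDD] animals. The differences were -0.46 ± 0.12 (adjusted p = 0.019), -0.39 ± 0.13 (adjusted p = 0.044, and 0.068 with the replicate block) and -0.66 ± 0.13 (adjusted p = 0.0061), of which the last passed 1.5-fold. That call was lost without wild type replicate 3, the highest sample (-0.56, adjusted p = 0.012), and under upper-quartile scaling (-0.57). *dnj-29*, a relative of the ER translocon protein SEC63, was also lower in SKN-1t[DNDD] animals, by less than 1.5-fold (229 to 276 CPM in the wild type and 170 to 205 CPM, -0.43 ± 0.10, adjusted p = 0.013).

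*dnj-24* (chromosome III, 5415583 to 5424083) was at 49.5, 57.7, 51.4 and 46.7 CPM in the wild type, against 31.3, 33.1, 32.5 and 28.5 CPM in SKN-1t[NNNN] animals, without overlap (-0.60 ± 0.08, adjusted p = 0.00080). Without SKN-1t[NNNN] replicate 4 the difference was -0.57 (adjusted p = 0.0018), short of the cutoff. SKN-1t[NDNN] had 32.4 to 48.2 CPM and SKN-1t[DNDD] 33.0 to 58.04, with differences of -0.37 (adjusted p = 0.070) and -0.18 (adjusted p = 0.41).

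Besides *dnj-20*, 2 *dnj* genes were called in SKN-1t[DNDD] animals alone, both at a low level and with wide spread. *dnj-22* (chromosome V, 8461113 to 8462120) was at 12.8, 9.52, 14.2 and 14.6 CPM in the wild type, against 18.1, 16.3, 30.5 and 26.7 CPM in SKN-1t[DNDD] animals, without overlap (0.85 ± 0.23, adjusted p = 0.027). *dnj-26* (chromosome IV, 12251093 to 12252679) was at 1.205, 0.869, 2.13 and 2.32 CPM and 3.41, 2.27, 7.997 and 5.66 CPM, overlapping in replicate 2 of the strain (1.57 ± 0.46, adjusted p = 0.034). In both genes replicates 3 and 4 were higher than replicates 1 and 2 in every genotype. The germline markers summed to 229, 109.9, 326 and 1054 CPM in SKN-1t[DNDD] animals and 59.5, 58.5, 192 and 193 CPM in wild-type replicates 1 to 4, and their part in these calls was not tested.

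Both calls failed in several fits with 1 sample less. *dnj-22* gave 0.84 (adjusted p = 0.061) without wild type replicate 1, 0.73 (0.078) without wild type replicate 2, 0.71 (0.064) without SKN-1t[DNDD] replicate 3 and 0.77 (0.055) without SKN-1t[DNDD] replicate 4. *dnj-26* gave 1.44 (0.085), 1.36 (0.091) and 1.72 (0.054) without wild type replicate 1, 2 or 3, and 1.25 (0.082) and 1.48 (0.065) without SKN-1t[DNDD] replicate 3 or 4. The test that takes the replicate number as a block called both, with adjusted p of 0.0042 for *dnj-22* and 0.0018 for *dnj-26*. With that block *dnj-22* was also higher in SKN-1t[NNNN] animals (0.55, adjusted p = 0.025) and SKN-1t[NDNN] animals (0.49, adjusted p = 0.015), short of 1.5-fold. The block differences of *dnj-26* in these strains were 0.59 and 0.43 (adjusted p = 0.14 and 0.16).

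**Figure D3:**
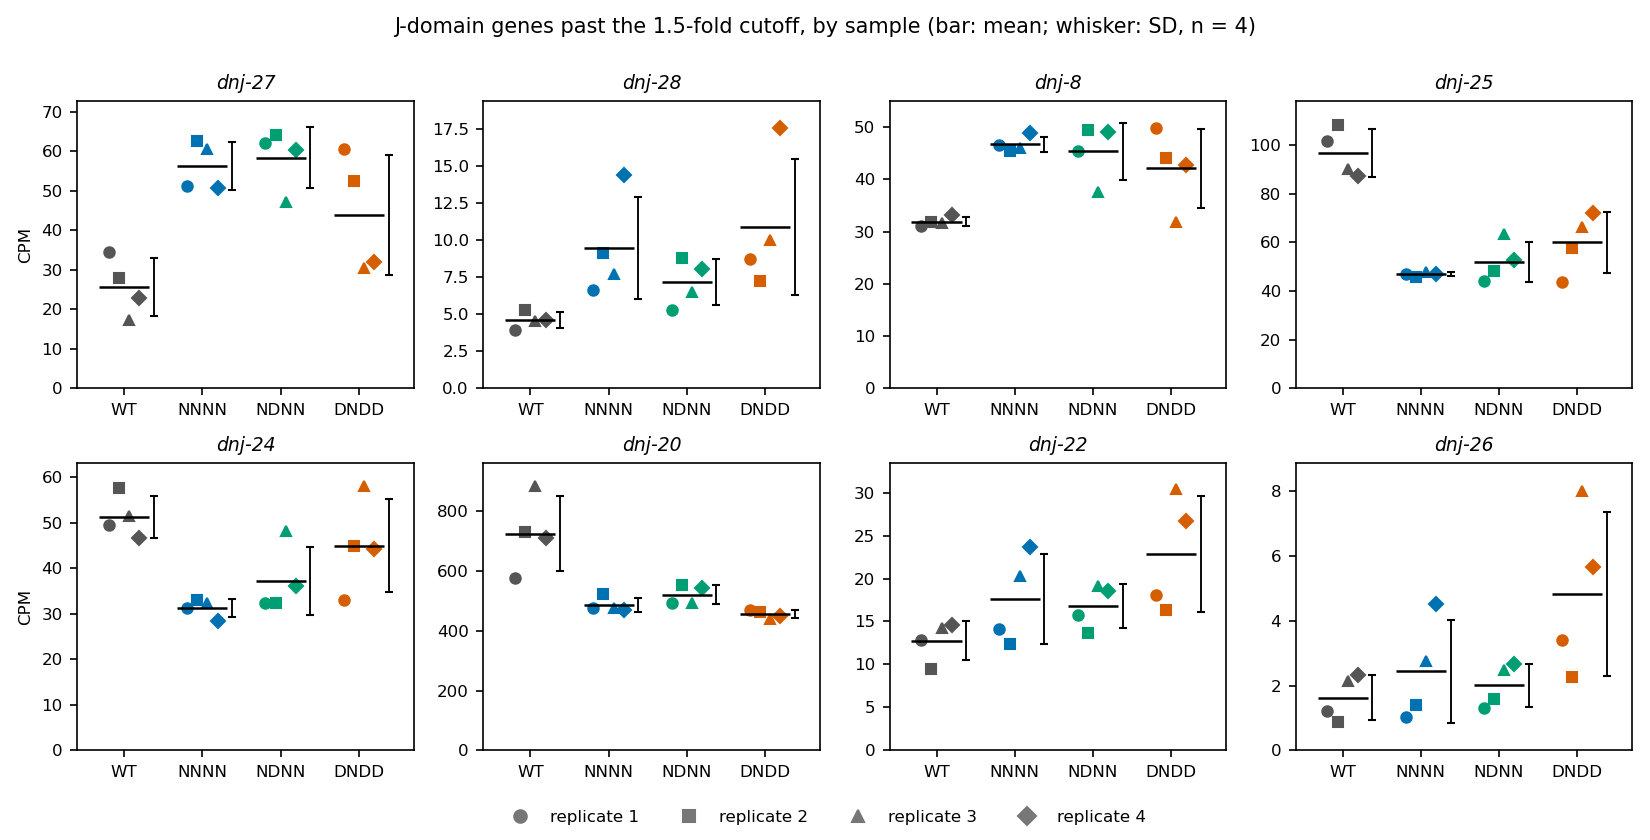
Level (CPM, axis from 0) of the 8 *dnj* genes called against the wild type in each of the 16 samples, with marker shapes for replicate numbers, bars at group means and whiskers of 1 SD (n = 4). *dnj-25* sits at 87.1 to 108 CPM in the wild type and 43.6 to 72.2 in the strains, and *dnj-22* and *dnj-26* are higher in replicates 3 and 4 than in 1 and 2 in every genotype.

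Other J-domain genes changed by smaller amounts. In SKN-1t[NNNN] animals *dnj-5* rose by 0.58 ± 0.13 (45.2 to 55.6 CPM in the wild type, with 62.5 to 83.5 CPM in the strain, adjusted p = 0.0074) and *dnj-17* by 0.40 ± 0.07 (23.5 to 25.7 CPM and 28.1 to 30.2 CPM, adjusted p = 0.0027), both with an adjusted p below 0.05 in all 16 alternatives. *dnj-13*, the partner of HSC70 related to human DNAJB1, rose by 0.40 ± 0.13 (adjusted p = 0.038, below 0.05 in 6 of 16). *dnj-10*, the mitochondrial Tid1 relative, went opposite ways in 2 strains: it was at 52.3 to 54.2 CPM in the wild type, with 52.8 to 64.1 in SKN-1t[NNNN] animals (0.23 ± 0.07, adjusted p = 0.028, below 0.05 in 4 of 16) and 37.4 to 44.2 in SKN-1t[DNDD] animals (-0.35 ± 0.08, adjusted p = 0.014, below 0.05 in 15 of 16, the exception at 0.051).

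Among the small heat shock genes, *hsp-12.6* and *hsp-12.3* were lower in SKN-1t[NNNN] animals, *hsp-12.1* was higher in SKN-1t[NNNN] animals and SKN-1t[NDNN] animals, and no *hsp-16* gene passed a test against the wild type. *hsp-12.6* (chromosome IV, 9446229 to 9447228), a known target of the FOXO factor DAF-16, was scarce, with 9 to 70 reads per sample. It was at 1.74, 1.70, 2.13 and 1.56 CPM in the wild type, with 0.971, 0.861, 0.587 and 0.346 in SKN-1t[NNNN] animals, 1.79, 1.45, 0.935 and 0.898 in SKN-1t[NDNN] animals and 2.35, 2.37, 2.32 and 1.71 in SKN-1t[DNDD] animals. All SKN-1t[NNNN] samples lay below all wild-type and all SKN-1t[DNDD] samples. The fall in SKN-1t[NNNN] was -1.25 ± 0.32 (adjusted p = 0.016), and without SKN-1t[NNNN] replicate 3 it was -1.18 (adjusted p = 0.054). In the other strains, NDNN and DNDD, the differences of -0.40 ± 0.28 and 0.30 ± 0.21 did not pass (adjusted p = 0.32 and 0.30).

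*hsp-12.3* (chromosome IV, 9444791 to 9445507) is the neighbour of *hsp-12.6* on the same strand. It was at 34.8, 37.5, 31.5 and 32.5 CPM in the wild type, against 19.7, 24.4, 15.4 and 13.1 CPM in SKN-1t[NNNN] animals, without overlap (-0.80 ± 0.18, adjusted p = 0.0077, called in all 16 alternatives). SKN-1t[NDNN] samples had 20.7 to 36.3 and SKN-1t[DNDD] samples 20.3 to 37.95 CPM, overlapping the wild type (-0.21 ± 0.16 and -0.20 ± 0.19). As with *hsp-12.6*, replicate 4 was the lowest sample in each transgenic strain.

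*hsp-12.1* (chromosome I, 10581538 to 10582615) went the other way. It was at 6.07, 7.65, 6.22 and 5.36 CPM in the wild type, with 10.1, 9.55, 11.3 and 6.37 in SKN-1t[NNNN] animals, 10.7, 8.63, 13.2 and 8.05 in SKN-1t[NDNN] animals and 7.53, 10.9, 10.1 and 5.003 in SKN-1t[DNDD] animals. The SKN-1t[NDNN] samples lay above the wild type, and the other strains overlapped it. The rise in SKN-1t[NDNN] was 0.77 ± 0.19 (adjusted p = 0.015, called in all 16 alternatives). That in SKN-1t[NNNN] animals, 0.67 ± 0.20 (adjusted p = 0.026), was lost in 8 of 16 alternatives, 6 of them with 1 sample left out: wild type replicate 1 (0.65, adjusted p = 0.061), 3 (0.61, 0.082) or 4 (0.55, 0.11), or SKN-1t[NNNN] replicate 1 (0.64, 0.063), 2 (0.60, 0.085) or 3 (0.57, 0.079). In SKN-1t[DNDD] animals it differed by 0.42 ± 0.26 (adjusted p = 0.23). *hsp-12.2*, at 1.42 to 13.6 CPM over all samples, varied too widely within groups to pass (-0.71 ± 0.48, -0.46 ± 0.53 and 0.03 ± 0.56).

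The *hsp-16* genes were close to silent. *hsp-16.1*, *hsp-16.11*, *hsp-16.48* and *hsp-16.49* lie within a few kilobases of each other on chromosome V (9087293 to 9090604), and had 8, 4, 6 and 7 reads in all 16 samples together, never more than 2 in a sample. *hsp-16.1* and *hsp-16.11* are nearly identical copies, as are *hsp-16.48* and *hsp-16.49*. Reads of such a pair may be assigned to the wrong copy or not counted, so that these values are uncertain. *hsp-16.2* and *hsp-16.41*, a divergent pair 220 bases apart on chromosome V (1804334 to 1805875), had enough reads to be tested. *hsp-16.2* was at 2.66, 3.91, 2.09 and 1.79 CPM in the wild type, with 2.19, 5.95, 5.39 and 1.80 in SKN-1t[NNNN] animals, 1.82, 7.18, 3.08 and 1.23 in SKN-1t[NDNN] animals and 2.57, 5.72, 2.65 and 0.560 in SKN-1t[DNDD] animals. All groups overlapped, and the differences from the wild type were 0.66 ± 0.44, 0.45 ± 0.54 and 0.15 ± 0.58 (adjusted p = 0.27, 0.57 and 0.86). *hsp-16.41*, at 0.165 to 3.01 CPM, gave 0.83 ± 0.44, 0.25 ± 0.54 and -0.31 ± 0.59 (adjusted p = 0.17, 0.77 and 0.71).

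**Figure D4:**
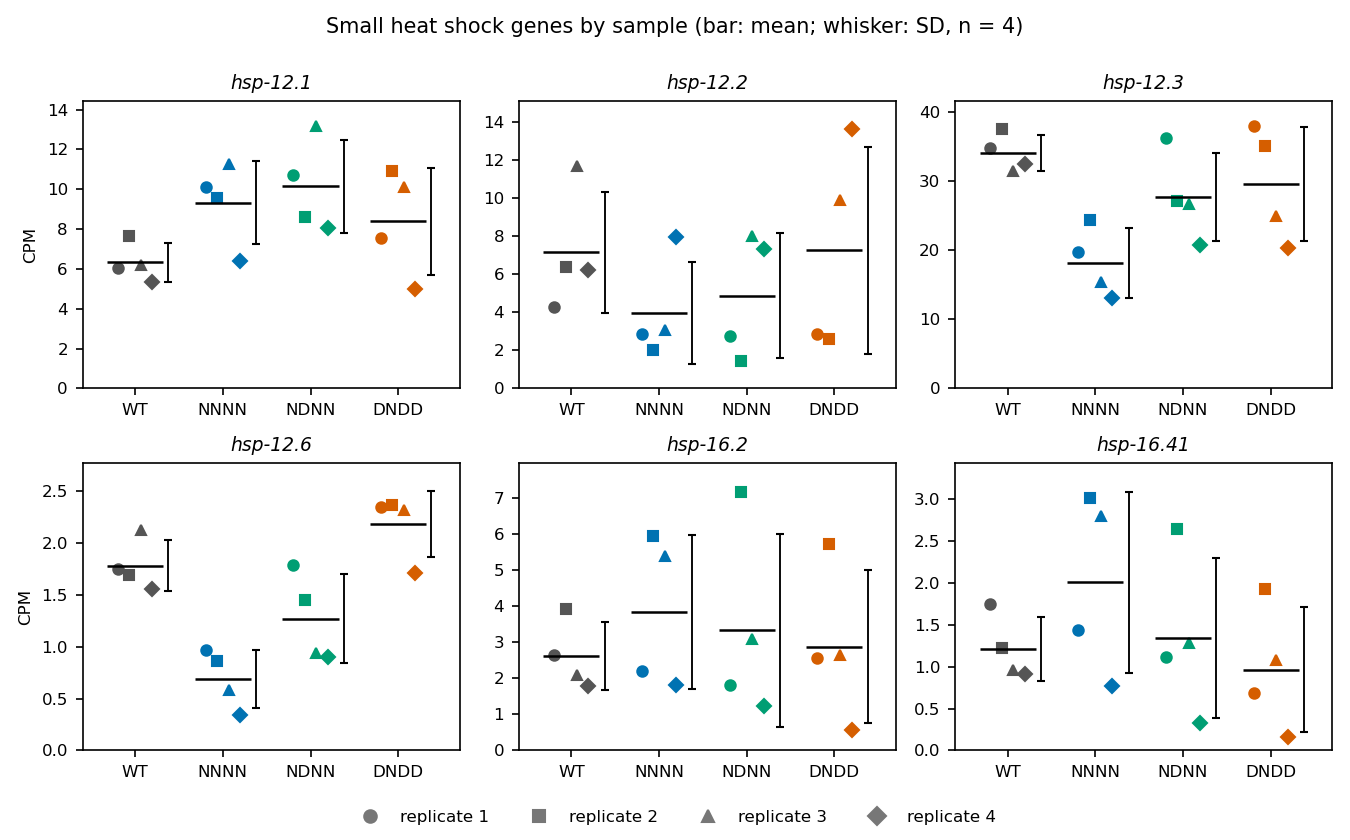
Level (CPM, axis from 0) of the 6 *hsp-12* and *hsp-16* genes tested in each of the 16 samples, with marker shapes for replicate numbers, bars at group means and whiskers of 1 SD (n = 4). *hsp-12.6* is at 0.346 to 0.971 CPM in SKN-1t[NNNN] animals and 1.71 to 2.37 CPM in SKN-1t[DNDD] animals, and *hsp-16.2* is highest in replicate 2 and lowest in replicate 4 of all 4 genotypes.

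*hsp-16.2* varied more with the replicate number than with the genotype. Replicate 2 was the highest and replicate 4 the lowest sample in all 4 genotypes, and 74.6% of the variance of its log2 level over the 16 samples lay between replicate numbers against 6.11% between genotypes. *hsp-70* (66.5% and 13.1%) and *hsp-17* (66.0% and 13.3%) were also highest in replicate 2 of all 4 genotypes, and after group means were removed *hsp-16.2* had r = 0.94 with *hsp-16.41* and 0.96 with *hsp-70* over the 16 samples, which share libraries. At the other end, *dnj-25* (4.36% between replicate numbers, 83.0% between genotypes), *dnj-20* (4.42% and 81.3%) and *dnj-29* (1.83% and 79.8%) differed mainly by genotype. The median gene of the 58 had 34.8% between replicate numbers and 37.1% between genotypes, where over all 14850 genes the medians were 22.6% and 46.2%. With 16 samples, some of the variance falls between 4 replicate numbers or 4 genotypes by chance alone, so small shares cannot be read as an effect. The sources name no shared day or batch for a replicate number.

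**Figure D5:**
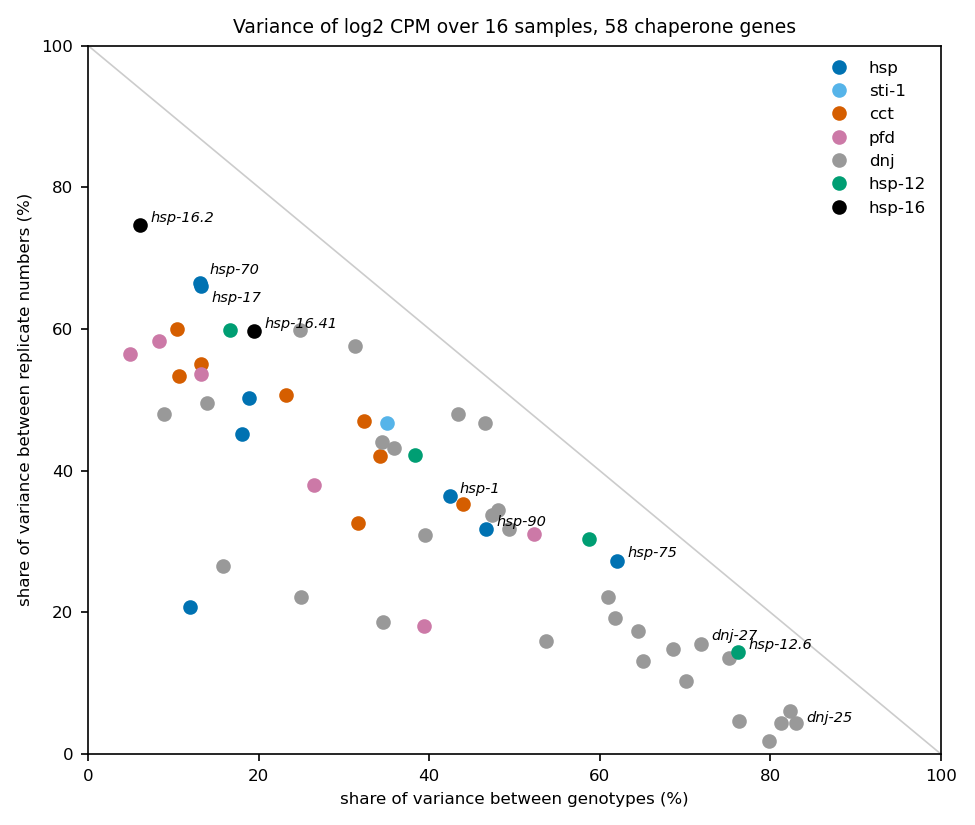
Share of the variance of log2 CPM over 16 samples that lies between the 4 genotypes (x axis, %) and between the 4 replicate numbers (y axis, %), 1 point for each of the 58 genes tested, coloured by family. *hsp-16.2*, *hsp-70* and *hsp-17* lie at 66.0% or more between replicate numbers, and *dnj-25* at 83.0% between genotypes.

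Between the strains, the chaperone genes were tested in 1 fit of all 16 samples, in which the strains share their error estimate. Each contrast compares 1 strain with another, so the Asp substitutions cannot be told apart from other differences between the strains. SKN-1t[DNDD] against SKN-1t[NNNN] gave 1 call, *hsp-12.6*, which was higher in SKN-1t[DNDD] by 1.65 ± 0.31 (adjusted p = 0.0033, called in all 15 alternatives that tested it), against 5.98% of all 14850 genes higher. There 0 genes were lower, against 3%, with 7 lower at an unadjusted p below 0.05, against 14.7% (17 with the block), and 0 in DESeq2. With the replicate number as a block, 3 were higher (*hsp-12.6* at 1.70, adjusted p = 0.00041, *hsp-12.3* at 0.70, adjusted p = 0.0032, and *dnj-26* at 1.04, adjusted p = 0.0067) and 1 was lower (*hsp-16.41* at -1.17, adjusted p = 0.037). Without the block *hsp-12.3* had the same difference of 0.70 ± 0.22 with an adjusted p of 0.0501.

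At an adjusted p below 0.05 alone, SKN-1t[DNDD] had 2 genes higher than SKN-1t[NNNN] animals and 4 lower, against 7.68% and 5.95% of all genes. With the block these were 6 and 12. *dnj-24* was the other higher gene (0.52 ± 0.16, adjusted p = 0.039, below 0.05 in 8 of 16 alternatives). The lower ones were *dnj-17* (19.2 to 24.1 CPM against 28.1 to 30.2, -0.48 ± 0.09, adjusted p = 0.0032), *dnj-10* (-0.47 ± 0.09, adjusted p = 0.0035), *hsp-75* as given above, and *pfd-3* (-0.30 ± 0.09, adjusted p = 0.047, below 0.05 in 7 of 16). *dnj-17* and *dnj-10* stayed below 0.05 in all 16 alternatives.

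SKN-1t[DNDD] against SKN-1t[NDNN] gave 0 calls in either direction in edgeR, against 0.512% of all genes higher and 0.586% lower, and none at an adjusted p alone, against 0.747% and 0.862%. At an unadjusted p below 0.05 3 genes were higher and 7 lower, against 9.02% and 9.41% of all genes (6 and 7 with the block), and DESeq2 had 1 lower gene below an adjusted p of 0.05, not past 1.5-fold. With the block 2 genes were called higher, *dnj-26* (1.19, adjusted p = 0.0073) and *hsp-12.6* (0.81, adjusted p = 0.024), and 3 were higher and 3 lower at an adjusted p alone. SKN-1t[NDNN] against SKN-1t[NNNN] also gave 0 calls, against 0.714% higher and 0.0269% lower, and none at an adjusted p alone, against 0.781% and 0.0269%. There 2 genes were higher and 2 lower at an unadjusted p below 0.05, against 6.97% and 3.12% (2 and 11 with the block), and 0 in DESeq2, and the block called *hsp-12.3* higher (0.62, adjusted p = 0.043). Differences between these strains spanned -0.30 to 0.15 (DNDD less NDNN) and -0.28 to 0.22 (NDNN less NNNN) for the 23 *hsp*, *cct*, *pfd* and *sti-1* genes.

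Genes that regulate or assist the chaperones were followed from a separate list. *hsf-1*, which encodes the heat shock factor, was at 27.5, 25.5, 29.4 and 26.8 CPM in the wild type, with 29.1, 29.9, 28.4 and 31.8 in SKN-1t[NNNN] animals, 30.9, 33.9, 31.6 and 33.9 in SKN-1t[NDNN] animals and 45.2, 42.2, 37.5 and 49.9 in SKN-1t[DNDD] animals. Every SKN-1t[DNDD] sample was above every other sample. The differences from the wild type were 0.25 ± 0.08 (adjusted p = 0.046), 0.35 ± 0.08 (adjusted p = 0.0087) and 0.69 ± 0.11 (adjusted p = 0.0025), and SKN-1t[DNDD] exceeded SKN-1t[NNNN] by 0.55 ± 0.09 (adjusted p = 0.00076) and SKN-1t[NDNN] by 0.42 ± 0.09 (adjusted p = 0.022). In the same SKN-1t[DNDD] animals *hsp-70*, *hsp-16.2* and *hsp-16.41* did not pass against the wild type. The other 3 regulators tested did not pass an adjusted p of 0.05 in any strain against the wild type.

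Of 10 co-chaperones outside the name rule, 3 were higher and 1 lower at an adjusted p below 0.05 in SKN-1t[NNNN] animals (20% and 17.1% of all genes), 1 and 1 in SKN-1t[NDNN] animals (18.1% and 14.8%) and 2 and 3 in SKN-1t[DNDD] animals (13.4% and 16.4%), and 0 passed 1.5-fold. The myosin chaperone *unc-45* was higher in the first 2 strains (0.48 and 0.40, adjusted p = 0.0028 and 0.020), and the HSP90 partners *cdc-37* and *daf-41* (p23) in SKN-1t[DNDD] animals (0.55 and 0.50, adjusted p = 0.018 and 0.017). *hip-1*, the HSP70-interacting protein, was lower in all 3 (-0.47, -0.46 and -0.35, adjusted p = 0.0030, 0.0042 and 0.042). It was not the lowest in SKN-1t[DNDD] animals, where the 10 differences ran from -0.45 to 0.55, with 6 positive and 4 negative. Of the other heat-inducible chaperones 2 of 5 had enough reads to be tested, and *ZK1128.7* was called lower in SKN-1t[NNNN] animals (-0.80, adjusted p = 0.0068) and SKN-1t[NDNN] animals (-0.64, adjusted p = 0.015). Among the 4 organelle chaperones left out by the name rule, *hsp-3*, an ER HSP70, was called lower in SKN-1t[DNDD] animals (-0.68, adjusted p = 0.025), against 10.8% of all genes. At an adjusted p below 0.05 alone 2 of the 4 were lower in that strain, against 16.4%. Compared with SKN-1t[NNNN], all 4 were lower in SKN-1t[DNDD], by differences of -0.73 to -0.34. In that comparison 1 of the 4 was called, against 3% of all genes.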

How the data were processed

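RNA was sequenced from 16 whole-animal samples, 4 of each genotype, collected from independent populations per the paper's methods. Per the labels and methods, the authors made stranded mRNA libraries, aligned paired reads to WBcel235 with STAR 2.7.7a and deposited raw counts of reads per gene, used here as deposited. How strand entered the counting is not given in the sources used here, and 14 of the 62 genes have an exon that overlaps a gene on the opposite strand (Ensembl release 115), *hsp-12.1*, *dnj-5*, *dnj-17*, *cct-1* and *hsp-90* among them, so that reads of such pairs may be mixed. Sequences of the genes were not analysed here.

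Tests used edgeR 4.0.16 in R 4.3.3 (genes kept by filterByExpr, minimum count 10, minimum total 15, scaled by TMM, legacy quasi-likelihood fit, Benjamini-Hochberg adjustment over all genes). Strain and wild type were fitted as 8 samples, and the strains were compared with each other in a fit of 16. Standard errors are the log2 difference divided by the root of F. Levels by family are means of log2 CPM with a prior count of 2. The fits were tested on simulated data with known changes. Figures used Python and matplotlib. Alternatives were RLE and upper-quartile scaling, no filter, at least 10 counts in every sample, DESeq2 1.42.0, newer quasi-dispersions, the replicate number as a block, other samples in the fit, and leaving out each sample. Counts at an adjusted p alone were added after the data were seen.

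Replicate numbers come from the labels. Deviations of same-numbered samples from their group means were correlated by more than 0.1 in every pair in 5 of 6 comparisons. These 5 met the rule used for pairing. For SKN-1t[NNNN] against the wild type the lowest of 4 was 0.063. The main tests took no account of the replicate number in any comparison. By this rule the block, given as an alternative, is the matching fit for those 5. In them the highest correlation of differently numbered samples was 0.381 to 0.634, above the lowest same-numbered value of the same comparison. Replicates varied more than counting gives (chi-square per degree of freedom of 16.7 to 162 over 24 pairs).

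The genes and lists were chosen with earlier results of these data known. Every gene past the 1.5-fold cutoff in any comparison is named, as are all *hsp*, *sti-1*, *hsp-12* and *hsp-16* genes tested and the largest and smallest differences of the *cct*, *pfd* and *dnj* families. Genes of the regulator, co-chaperone and other chaperone lists are named where they passed that cutoff against the wild type. Marker lists are given by counts and sums, and further *dnj*, *cct* and co-chaperone genes were named after their values were seen.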

Additional observations from a re-analysis of the deposited data

Results flagged for a closer look

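In groups of 4 samples, a sample was singled out when its gap to the next value took most of the range of the group, which chance gives in about 1 in 20 groups. Of 72 groups checked, 4 met this. *hsp-12.6* was at 1.712 CPM in replicate 4 of SKN-1t[DNDD], where the other 3 samples had 2.317 to 2.369. *dnj-20* was at 521.0 CPM in replicate 2 of SKN-1t[NNNN], against 467.9 to 476.5 in the others. The mean log2 level of the *dnj* genes was 0.065 above the wild-type mean in replicate 2 of SKN-1t[NDNN], against -0.022 to -0.017 in the others, and that of the *pfd* genes was -0.19 in replicate 4 of SKN-1t[NDNN], against 0.0079 to 0.047. By a test of the difference itself, *hsp-12.6* was higher in the SKN-1t[DNDD] strain than in SKN-1t[NNNN] animals, by 1.65 on the log2 scale.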

How the results depend on the processing

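Over the alternatives no called difference changed sign. Of 19 calls, 19 held with the replicate block and with newer quasi-dispersions, 18 under RLE scaling and in DESeq2, 17 under upper-quartile scaling and without a filter, 15 with other samples in the fit, and 10 in every fit that left out a sample; requiring 10 counts in every sample left 17 to test, and all held. Beyond those given beside the results, the block moved no count of the chaperone genes against the wild type by over 1.5 times except for SKN-1t[NNNN] at 2-fold, where it gave 1 gene higher in place of 2. There the numbers do not pair the samples by the rule used. RLE scaling, no filter and other samples in the fit also gave 1 higher, and leaving out a sample 1 to 2. Lower genes at 2-fold in that strain were 1 under RLE scaling and 2 in DESeq2 and with other samples in the fit, and 0 to 1 leaving out a sample. At 1.5-fold, other samples in the fit gave 2 higher for each of SKN-1t[NNNN] animals and SKN-1t[NDNN], and leaving out a sample gave 2 to 4 in the latter. For SKN-1t[DNDD] against the wild type, 2-fold higher genes were 1 under upper-quartile scaling and with other samples in the fit, 2 in DESeq2 and with the block, and 0 to 1 leaving out a sample. Its 1.5-fold counts were 1 to 3 higher and 1 to 2 lower leaving out a sample, and 0 lower under upper-quartile scaling. Of SKN-1t[DNDD] against SKN-1t[NNNN], 2 were higher under upper-quartile scaling, in DESeq2 and with newer quasi-dispersions, 3 with the block and 1 to 2 leaving out a sample, and 1 was lower with the block and 0 to 1 leaving out a sample. With SKN-1t[NDNN] as the reference the block gave 2 genes higher in SKN-1t[DNDD] animals, and with SKN-1t[NNNN] as the reference 1 gene higher in SKN-1t[NDNN] animals. Without the fold limit the counts were 20 and 7 (NNNN), 5 and 2 (NDNN) and 5 and 5 (DNDD) against the wild type, and 2 and 4 for the DNDD strain against SKN-1t[NNNN]. The causes of these shifts were not tested. Depth limits *hsp-12.6*, *dnj-26*, *hsp-70* and the *hsp-16* genes, with few reads per sample.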
